A study of Rattus norvegicus with 9 samples.

Results

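Epithelial cells hold together and seal the space between them with several kinds of junction, and 10 junction genes were followed here in cultured rat ureteric buds: Cldn7, Cldn3, F11r, Ocln and Tjp1 of the tight junction, Dsc2, Dsp and Pkp2 of the desmosome, Cdh1 of the adherens junction and Gja1 of the gap junction. The members were the probe sets whose symbol in the platform's gene table is 1 of these 10. They numbered 13, out of 15866 non-control probe sets on the array. Of these, 10 (1 for each gene) were among the 10106 probe sets kept for testing, a set limited to signals over the 40th percentile of their array on 3 or more of the 9 arrays. Another 2 probe sets of Gja1 and 1 of Ocln were too dim to be kept and are described by their signals alone.

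Ureteric buds, the epithelial outgrowths that branch to form the collecting ducts of the kidney, came from embryonic day 13 Sprague-Dawley rats and grew for 4 days in a gel made in equal parts of Matrigel, reduced in growth factors, and type 1 collagen. Every culture received FGF1 at 250 ng/ml and GDNF at 125 ng/ml. The HRG group received in addition human recombinant heregulin alpha, an ErbB receptor ligand, at 500 ng/ml. For the PTN group the addition was pleiotrophin, which binds heparin and acts as a growth factor, at about 3 µg/ml. It had been purified from medium conditioned by BSN cells, a metanephric mesenchymal line. The BSN group received that conditioned medium itself. Each sample was RNA of 3 buds, each group had 3 samples that the series design calls biological replicates, and no group received FGF1 and GDNF alone, so a rise in one medium cannot be told apart from a fall in the other. The series title calls BSN and PTN branching and HRG non-branching, whereas the PTN samples are described as non-branching, so the groups are named here by medium. RNA was amplified by 2 rounds of in vitro transcription before hybridisation.

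Tight junctions close the gap between neighbouring cells near the apex. Claudins form the seal, occludin (Ocln) and the junctional adhesion molecule JAM-A (F11r) are further membrane proteins of the strand region, and ZO-1 (Tjp1) is the scaffold beneath them. Desmosomes are the spot welds of an epithelium: the cadherin desmocollin 2 (Dsc2) bridges the cells, plakophilin 2 (Pkp2) sits on its tail, and desmoplakin (Dsp) ties the plaque to keratin filaments. E-cadherin (Cdh1) holds the adherens junction together, and connexin 43 (Gja1) forms gap junction channels through which small molecules pass from cell to cell. In the developing kidney the ureteric bud keeps its epithelial junctions while it branches, and claudin 3 and claudin 7 are both known from the collecting duct.

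The deposited values are array signals on a linear scale, and the signal of 1 probe set cannot be set against that of another. Changes are differences of log2(signal + 16) between groups in a limma fit of all 9 arrays, folds are on the same scale, and adjusted p is limma's moderated test with Benjamini-Hochberg adjustment over all 10106 probe sets, with 0.05 as threshold. The trimmed mean signal was 2500.48 to 2500.58 on all arrays. Least like its own group was PTN replicate 1, with a mean Pearson r of 0.946 across probe sets, against 0.962 and 0.963 for the other PTN arrays and 0.972 to 0.976 for the HRG and BSN arrays. For actin, the ratio of 3' to 5' control signal, higher in degraded or 3'-weighted RNA, was 25.2 ± 5.86 in HRG, 16.6 ± 1.4 in PTN and 33.2 ± 4.91 in BSN (SD, n = 3 each), with exact two-sided permutation p of 0.1 in both comparisons that include PTN, and 0.2 between HRG and BSN, where 0.1 is the smallest p that 3 against 3 arrays allow. The GAPDH ratio ran in another order, at 2.92 ± 0.802 in HRG, 5.14 ± 1.98 in PTN and 4.57 ± 1.11 in BSN, with exact two-sided permutation p of 0.3 for HRG against PTN, 0.1 for HRG against BSN and 0.8 for PTN against BSN. The part of RNA quality in the results was not tested. Of the ureteric epithelial marker genes on the array, 7 of 7 were above the 40th percentile on at least 3 arrays, against 4 of 10 for mesenchyme and stroma, 1 of 7 for endothelium, 2 of 7 for blood and 1 of 5 for muscle. Each marker was taken by its brightest probe set, and the same rule held for 10106 of all 15866 non-control probe sets. The ureteric markers themselves differed between media: in HRG against PTN 2 rose (Krt8 and Krt18) and 2 fell, the bud tip genes Ret (918 ± 171 in HRG and 18756 ± 850 in PTN, SD, n = 3 each) and Lhx1. Of all kept probe sets 25.8% were called in that comparison. In HRG against BSN 0 of the 7 rose and 2 fell, Ret and Lhx1, beside 15.8% of all kept probe sets called.

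**Figure D1:**
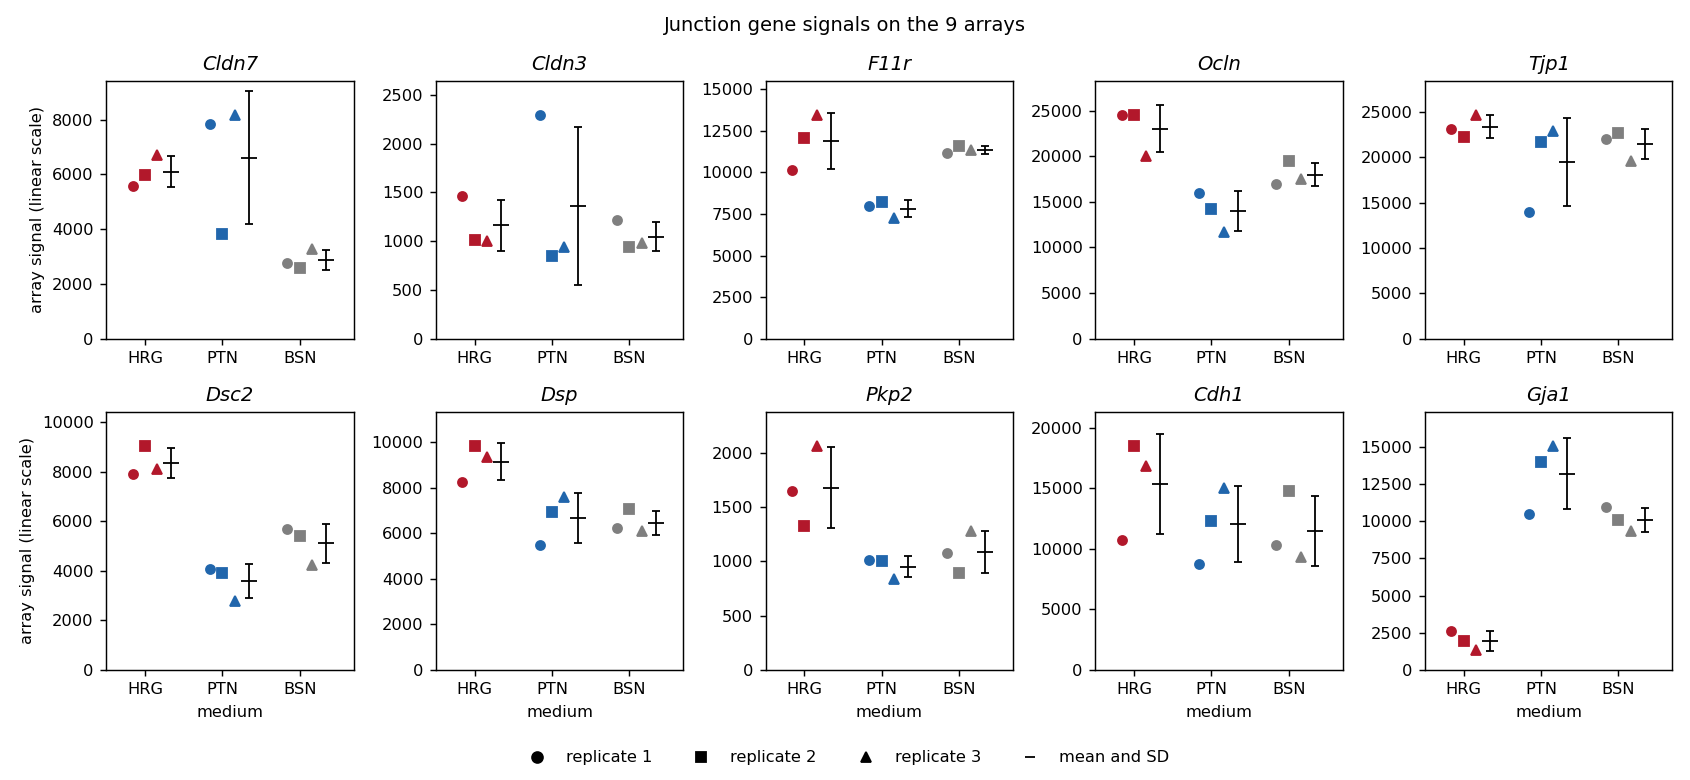
Array signal (linear scale) of the kept probe set of each junction gene in the HRG, PTN and BSN media. Symbols are single arrays and the bar beside them is the mean with its SD. The 3 HRG arrays of Gja1 lie between 1313.3 and 2625, below the other 6. For Dsc2, Dsp, Pkp2 and Ocln the HRG arrays lie above all others.

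The desmosome genes were highest in heregulin. All 3 measured members rose in HRG against PTN and against BSN, by 1.38-fold to 2.35-fold and by 1.41-fold to 1.64-fold. Over all kept probe sets, 25.8% differed between HRG and PTN (14.1% higher and 11.7% lower in HRG) and 15.8% between HRG and BSN (6.92% higher and 8.86% lower). Of the 10 junction genes as a whole, 5 rose and 1 fell in HRG against PTN, with a median log2 change of 0.41 beside 0.08 over all kept probe sets. Against BSN, 4 rose and 1 fell in HRG, with a median of 0.38 beside -0.04. PTN against BSN called 22.5% of all kept probe sets (9.15% higher and 13.4% lower), and of the junction genes 1 rose and 2 fell, with a median of -0.07 beside -0.11. The arrays of HRG and PTN did not overlap for 6 of the 10 members, beside 40.2% of all kept probe sets, those of HRG and BSN for 6, beside 37.0%, and those of PTN and BSN for 4, beside 38.5%. The members were chosen with earlier results of these data known, so these counts and medians describe the chosen genes only. In bulk RNA, fewer cells that carry a transcript and less of it per cell cannot be told apart.

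Dsc2 had the largest change of the desmosome members. In replicates 1, 2 and 3, the order used throughout, its signal was 7909, 9039 and 8106 in HRG, 4064, 3902.5 and 2777 in PTN, and 5694, 5414 and 4217 in BSN. The HRG arrays lay above all others, and the PTN arrays below all BSN arrays. Dsc2 rose 2.35-fold in HRG against PTN (log2 change 1.24 ± 0.17 SE, n = 3 each, adjusted p = 0.000188 in the limma fit) and 1.64-fold in HRG against BSN (0.72 ± 0.17, limma adjusted p = 0.0118). In PTN against BSN it fell 1.43-fold (-0.52 ± 0.17, limma adjusted p = 0.0447), the weakest of its calls: it passed in 7 of 19 alternative settings, and its log2 change under median centring of the arrays was -0.31 (adjusted p = 0.243). Leaving out BSN replicate 3 (0.0618) or HRG replicate 2 (0.0564) ended the call against BSN. In PTN against BSN, adjusted p was 0.0527 to 0.174 without any of BSN replicates 1 and 2, the 3 HRG replicates, or PTN replicates 2 and 3.

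The signal of Dsp was 8266, 9855 and 9367 in HRG, 5470, 6962 and 7602 in PTN, and 6252, 7068 and 6088 in BSN. Again the HRG arrays lay above all others, while PTN and BSN overlapped. Dsp rose 1.38-fold in HRG against PTN (adjusted p = 0.0348 in the limma fit) and 1.41-fold against BSN (0.0364). Both calls were close to the threshold, and that against BSN passed in 12 of 19 alternatives. That against PTN passed in 12 and also with no intensity trend, where its adjusted p, 0.05 when rounded, was just under the threshold. With median centring the adjusted p was 0.204 against PTN and 0.0518 against BSN, and without HRG replicate 2 it was 0.118 and 0.14. Against PTN the call was also lost without HRG replicate 3 (0.101), PTN replicate 1 (0.0719) or PTN replicate 2 (0.054), and against BSN without HRG replicate 3 (0.117) or any of the 3 BSN replicates (0.105, 0.0538 and 0.126). PTN and BSN were not separated for this gene, with a log2 change of 0.04 and a 95% interval of -0.28 to 0.35.

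Pkp2 was at 1647, 1324 and 2064 in HRG, 1008, 1004 and 836 in PTN, and 1072, 896 and 1282 in BSN, so the lowest HRG array was just above the highest BSN array. It rose 1.73-fold in HRG against PTN (log2 change 0.79 ± 0.196 SE, n = 3 each, limma adjusted p = 0.0098), a call lost without HRG replicate 3 (0.0568). In HRG against BSN it was 1.53-fold higher at an adjusted p of 0.04997 in the limma fit, number 1590 of the 1594 probe sets called, and it passed in 9 of 18 alternatives. Leaving out any of BSN replicate 1 (0.117), BSN replicate 2 (0.179), HRG replicate 1 (0.109), HRG replicate 3 (0.227), PTN replicate 2 (0.0607) or PTN replicate 3 (0.0529) ended this call. PTN against BSN did not pass (log2 change -0.18, 95% interval -0.60 to 0.25).

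The tight junction members did not move as a group. Claudin 7 was low in BSN, JAM-A was low in PTN, occludin rose in HRG against PTN, and Cldn3 and Tjp1 passed in no comparison. Claudins are small proteins with 4 membrane-spanning segments whose outer loops meet across the gap between cells. Cldn7 had a signal of 5581, 5992 and 6703 in HRG, 7830, 3828.5 and 8179 in PTN, and 2745, 2578 and 3266 in BSN. All 6 HRG and PTN arrays lay above all BSN arrays, with PTN replicate 2 well below the other PTN arrays. Cldn7 rose 2.13-fold in HRG against BSN (log2 change 1.09 ± 0.239 SE, n = 3 each, limma adjusted p = 0.00762) and 2.19-fold in PTN against BSN (1.13 ± 0.239, 0.00556), and both calls passed in all 19 alternatives. HRG and PTN were not separated (log2 change -0.04, 95% interval -0.56 to 0.48).

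Cldn3 had a signal of 1465, 1015 and 1003.5 in HRG, 2298.5, 844 and 944 in PTN, and 1217, 940 and 981 in BSN. PTN replicate 1 was the highest array by far, and without it the log2 change in HRG against PTN was 0.35 (adjusted p = 0.215) in place of -0.10 (0.85). The 95% intervals of its log2 change were -0.77 to 0.58 for HRG against PTN, -0.54 to 0.81 for HRG against BSN and -0.44 to 0.91 for PTN against BSN, so changes of the size seen for Cldn7 against BSN, 1.09 and 1.13, were outside its intervals.

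The promoters of these claudin genes are shown because one gene changed between media and the other passed in no comparison. Each line gives the 250 bases upstream of the start site in the RefSeq promoter table for build GRCr8, which held 8 of the 10 genes, read 5′ to 3′ on the gene's strand. Cldn7 lies at chr10:55188420-55188669 on the + strand and Cldn3 at chr12:27346548-27346797 on the - strand. Capitals mark the E-box CAGGTG or its reverse complement, a sequence bound by repressors of epithelial genes such as Snail and ZEB proteins.
Cldn7: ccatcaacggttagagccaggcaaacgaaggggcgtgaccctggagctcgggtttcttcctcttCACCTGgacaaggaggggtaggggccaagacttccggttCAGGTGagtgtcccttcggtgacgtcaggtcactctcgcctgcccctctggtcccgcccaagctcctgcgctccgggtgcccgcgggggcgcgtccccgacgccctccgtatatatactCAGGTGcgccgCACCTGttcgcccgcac
Cldn3: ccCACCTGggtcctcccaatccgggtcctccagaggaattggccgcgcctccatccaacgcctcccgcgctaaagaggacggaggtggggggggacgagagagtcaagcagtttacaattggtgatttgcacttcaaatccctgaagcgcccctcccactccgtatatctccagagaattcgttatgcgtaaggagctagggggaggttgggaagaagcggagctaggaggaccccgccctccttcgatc
Cldn7 held 4 copies, beginning 186, 147, 28 and 17 bases before the start, and Cldn3 held 1, beginning 248 bases before it. Among the 8 junction genes with an entry, 6 held at least 1 copy (Cldn7, Cldn3, F11r, Ocln, Dsc2 and Dsp), and Tjp1 and Gja1 held none, where the Tjp1 window lies 179658 bases inside the gene's annotated extent. Among all 33469 promoters in the table, 15.9% held the E-box, and 10 held 4 or more copies (0.0299%), a number of copies chosen after the Cldn7 promoter was read. The grainyhead motif AACCGGTT, searched on both strands because grainyhead factors are known regulators of claudins in mouse duct epithelium, was in none of the 8 windows and in 0.146% of all. A match in these letters is a description of the sequence only.

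Occludin and JAM-A both rose in HRG against PTN. Ocln had a signal of 24549, 24472 and 20059 in HRG, 16002, 14224.5 and 11717.5 in PTN, and 16978, 19414 and 17510 in BSN. The media did not overlap, with HRG highest and PTN lowest. In HRG against PTN Ocln rose 1.65-fold (log2 change 0.72 ± 0.141 SE, n = 3 each, limma adjusted p = 0.00231), and this passed in all 19 alternatives. The steps on either side of BSN did not pass: HRG against BSN was 0.35 (95% interval 0.05 to 0.66, limma adjusted p = 0.118) and PTN against BSN was -0.37 (-0.68 to -0.07, 0.0759). The second step passed in 4 of 19 alternatives, without PTN replicate 1 (0.0184), with array weights (0.0244), after quantile normalization (0.0265) and with the replicate block (0.0489). The first passed in 2 of 19, after median centring (0.0441) and with only the groups compared (0.0496).

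F11r was at 10131, 12041 and 13474 in HRG, 7998, 8202 and 7257.5 in PTN, and 11141, 11604 and 11339 in BSN. All PTN arrays lay below all others, and the BSN arrays fell inside the range of HRG. F11r rose 1.51-fold in HRG against PTN (log2 change 0.59 ± 0.131 SE, n = 3 each, limma adjusted p = 0.00514), which passed in all 19 alternatives. It fell 1.45-fold in PTN against BSN (-0.54 ± 0.131, limma adjusted p = 0.0112), a call lost only with median centring (-0.33, 0.147) among the 19 alternatives. HRG against BSN was 0.06 with a 95% interval of -0.23 to 0.34. Krt8 and Krt18, keratins of simple epithelia, were lower in PTN than in BSN, as was F11r: Krt8 averaged 15014 ± 2926 in PTN and 19710 ± 675 in BSN (SD, n = 3 each, limma adjusted p = 0.0453). Krt18 averaged 16294 ± 4451 in PTN, against 28638 ± 1149 in BSN (limma adjusted p = 0.00311). Of the 7 ureteric markers, these 2 fell, 1 rose and 4 did not pass, beside 13.4% lower and 9.15% higher over all kept probe sets. The 1 that rose was Ret, averaging 18756 ± 850 in PTN and 13512 ± 1883 in BSN (limma adjusted p = 0.0424). Epcam, an adhesion molecule of epithelia counted in both the marker list and the adherens junction list, averaged 55695 in PTN, against 63332 in BSN (limma adjusted p = 0.224), and the part of epithelial content in the PTN levels was not tested.

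Tjp1 varied little in HRG and BSN. Its signal was 23138.5, 22236 and 24683.5 in HRG, 13935, 21657 and 22876 in PTN, and 22051, 22686 and 19555 in BSN, and PTN replicate 1 alone was far below the rest. No comparison passed, with log2 changes of 0.29 (95% interval -0.07 to 0.66) in HRG against PTN, 0.13 (-0.24 to 0.49) in HRG against BSN and -0.17 (-0.53 to 0.20) in PTN against BSN.

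E-cadherin, the adherens junction member, scattered by about the same share of its mean in all 3 media. Cdh1 was at 10705, 18523 and 16887 in HRG, 8773.5, 12325 and 15021 in PTN, and 10342, 14763 and 9300 in BSN, with coefficients of variation of 26.8%, 26% and 25.3%. The media overlapped in every comparison. The log2 change was 0.35 (95% interval -0.18 to 0.87) in HRG against PTN, 0.41 (-0.11 to 0.94) in HRG against BSN and 0.06 (-0.46 to 0.59) in PTN against BSN, so a difference of about the size found for Dsp lay inside each of these intervals.

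**Figure D2:**
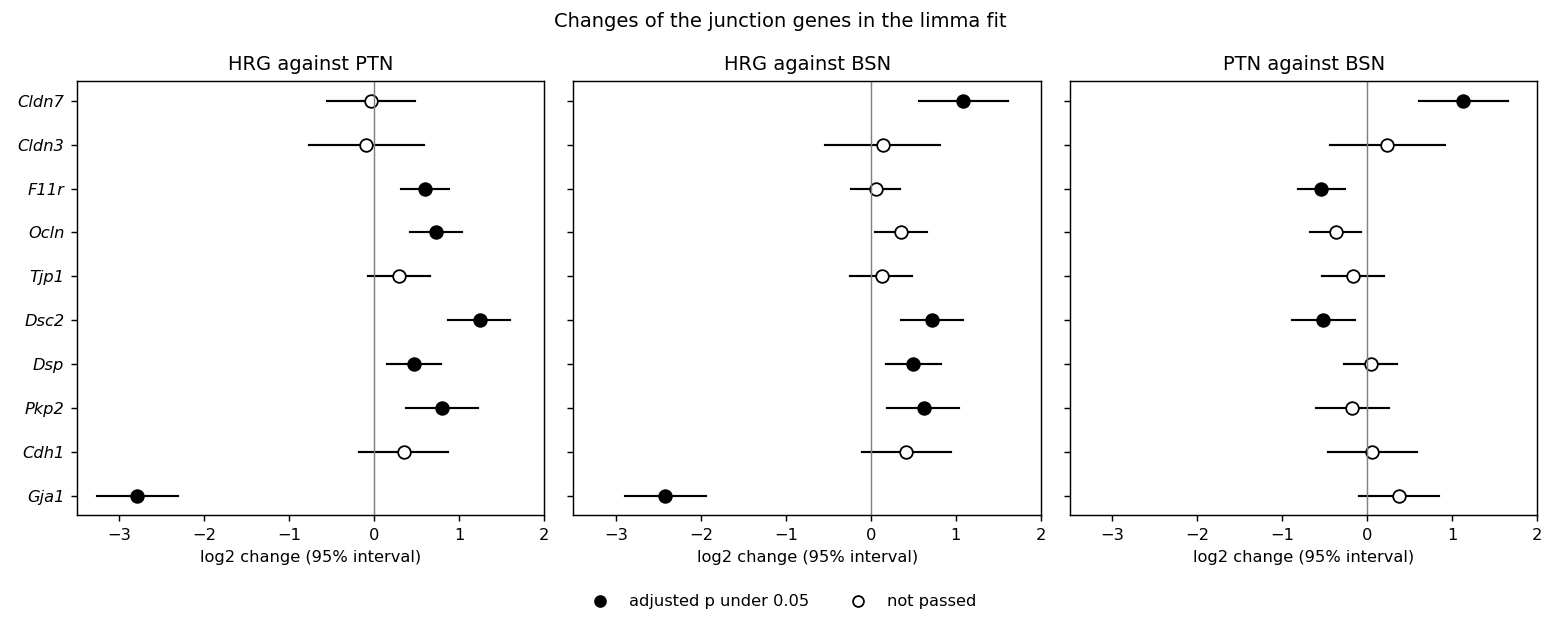
Log2 change with its 95% interval for the kept probe set of each junction gene in the 3 comparisons, with filled points where the limma adjusted p was under 0.05. Gja1 stands alone on the left in both comparisons of HRG, at -2.79 and -2.42, and the desmosome genes lie to the right of 0 in both.

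Connexin 43 changed more than any other member. Gja1 had a signal of 2625, 1913 and 1313 in HRG, 10493, 14001 and 15082 in PTN, and 10927, 10092 and 9318.5 in BSN. Every HRG array lay far below every other array, and PTN replicate 1 fell within the BSN range. Gja1 fell 6.9-fold in HRG against PTN (log2 change -2.79 ± 0.218 SE, n = 3 each, limma adjusted p = 2.42e-06) and 5.34-fold in HRG against BSN (-2.42 ± 0.218, 1.08e-05), and it passed in all 19 alternatives of both. PTN against BSN was 0.37 with a 95% interval of -0.10 to 0.84 (limma adjusted p = 0.241). By p, Gja1 ranked 52 and 62 of the 10106 probe sets in the comparisons of HRG with PTN and with BSN.

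Gja1 is also expressed by mesenchymal and endothelial cells, so their markers are given beside it. The summed signal of the 10 mesenchymal and stromal markers on the array was 3376 to 4513 in HRG, 4538 to 4744 in PTN and 4762 to 5039 in BSN. The highest HRG array was thus only just below the lowest PTN array. Of the 10 markers, 4 were above the 40th percentile on at least 3 arrays, so the sum includes signals whose order was not relied on. In that list Pdgfra, Pdgfrb, Twist1, Lum and Postn were above the 40th percentile on none of the 9 arrays, and Vim averaged 745 ± 329 in HRG, 1189 in PTN and 1502 ± 335 in BSN (SD, n = 3 each; limma adjusted p = 0.0456 for HRG against BSN). The other kept markers of that list passed in no comparison: Col1a1 averaged 799 in HRG, 885 in PTN and 750 in BSN, Col1a2 averaged 551 in HRG, 797 in PTN and 804 in BSN, and Col3a1, highest in HRG, averaged 852 in HRG, 614 in PTN and 670 in BSN. Kdr, the VEGF receptor of endothelium, averaged 329 ± 27.6 in HRG, 840 ± 229 in PTN and 742 ± 29.5 in BSN (limma adjusted p = 0.00258 and 0.00792 for HRG against PTN and BSN). Kdr was above the 40th percentile on 4 of the 9 arrays, none of them HRG, so it was kept through the media where it is higher. Pecam1, Tie1, Flt1, Vwf and Cldn5 were above the 40th percentile on none of the arrays. The endothelial sum was 2279 to 2838 in HRG, 2545 to 2786 in PTN and 2313 to 2984 in BSN. The part of these cells in the Gja1 difference was not tested.

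The AP-1 motif TGACTCA, searched on both strands, the site of Fos and Jun factors, occurred in the Gja1 promoter window and in that of F11r, and in 4.05% of all promoters of the table. For Gja1 and Dsc2 the start site of the table lies inside the gene's annotated extent, so only 30 bases around 1 motif are shown, with the motif in capitals. The Gja1 stretch, on the + strand at chr20:36302495-36302524, has the AP-1 motif beginning 58 bases before the start, and the Dsc2 stretch, on the - strand at chr18:11757472-11757501, has the E-box beginning 23 bases before it. They are shown for the members with the largest fall and the largest rise against PTN.
Gja1: ctccttccagtTGAGTCAgtggcttgaaac
Dsc2: gtgtcgtctgcaCAGGTGaaagggtggcgg
The Dsc2 window lacked the AP-1 motif. The start sites of the table lie 74 bases inside the annotated extent for Gja1 and 125 for Dsc2, and also inside it for Dsp (298) and Ocln (1009), so these windows need not be the promoter in use.

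**Figure D3:**
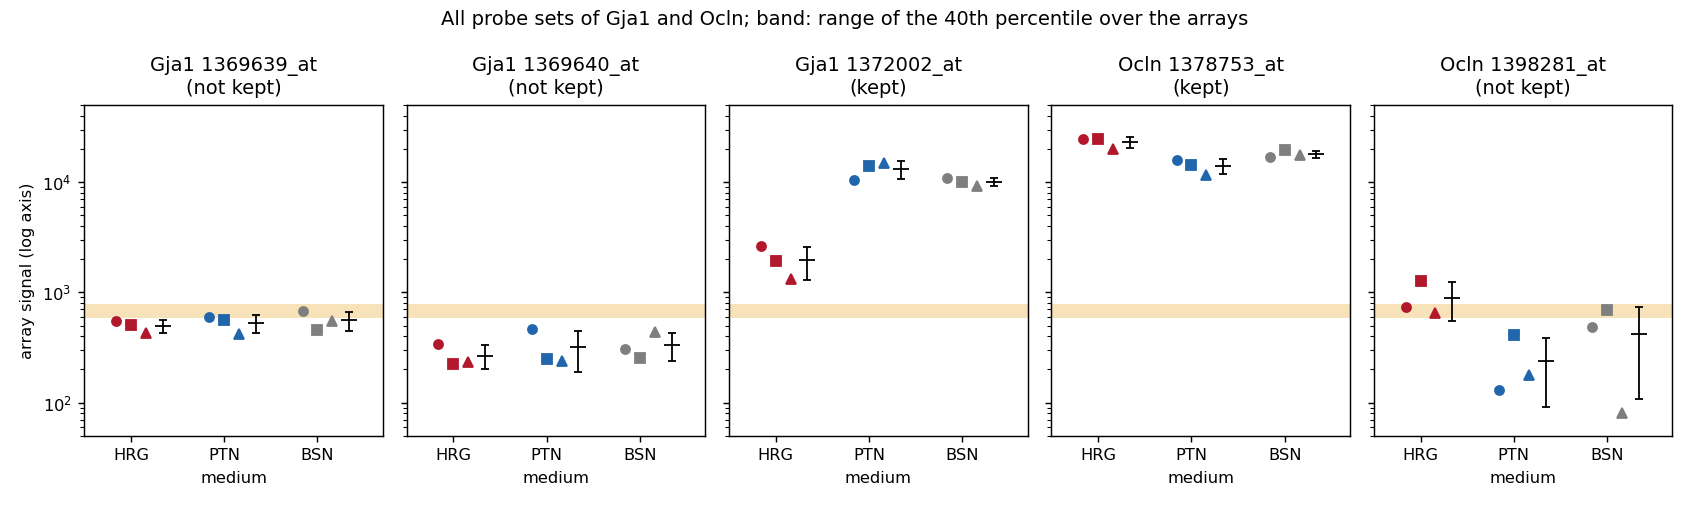
Signals (log axis) of every probe set of Gja1 and Ocln in the 3 media, with single arrays as symbols, the mean with SD beside them and a band for the range of the 40th percentile over the 9 arrays (580 to 788). Only 1372002_at of Gja1 and 1378753_at of Ocln lie above the band on all arrays.

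The dim probe sets of Gja1 and Ocln lay mostly under the band of the 40th percentile, where the order of signals was not relied on. Probe set 1369639_at had signals of 426 to 549 in HRG, 418.5 to 595 in PTN and 458 to 677 in BSN, and 1369640_at had 225 to 340 in HRG, 238 to 469 in PTN and 257 to 435 in BSN. Neither exceeded the 40th percentile of any of the 9 arrays, and their media overlapped, so the fall of Gja1 rests on 1372002_at alone. The second Ocln probe set, 1398281_at, was at 737, 1282 and 656 in HRG, 131, 407 and 177.5 in PTN, and 485, 693 and 79.9 in BSN, and was above the 40th percentile on 2 arrays, both HRG.

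The members differed in which medium stood apart. Dsc2, Dsp and Pkp2 were high in HRG, and of these Dsc2 alone also passed between PTN and BSN. Cldn7 was low in BSN, F11r low in PTN, and Ocln was separated at its ends, HRG over PTN. Gja1 was low in HRG, and Cldn3, Tjp1 and Cdh1 had no difference that passed. As a description over the 9 arrays, which share their media, Pearson's r of the log2 signals was 0.94 between Ocln and Dsc2, 0.80 between F11r and Dsc2 and 0.85 between Dsp and Cdh1. It was -0.89 between Gja1 and each of Dsc2 and Pkp2. Cldn7 had r between -0.38 and 0.38 with all other members.

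Over the same 9 arrays, and among 4296 brighter probe sets with 1 symbol, the genes whose log2 signals were most like Gja1 were Armcx2 (r = 0.985), Stra6, the retinol-binding protein receptor (0.982), and Crym, a thyroid hormone binding protein (0.982). Most like Dsc2 were Rab11a, a GTPase of recycling endosomes (0.972), Asb8 (0.971) and Letmd1 (0.97). Dsp was most like Net1 (0.964), Acadm, a fatty acid oxidation enzyme (0.953), and Vcam1, a cell adhesion molecule (0.951). F11r was most like Ccl20, a chemokine, and Pcmtd1 (both 0.973), and Cldn7 was most like Isoc1 (0.951). With 9 arrays in 3 media, such values describe a shared order of the arrays only.

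The other genes of the 4 junction types were called in both directions, as were all kept probe sets. Of 82 further junction genes listed, 46 were on the array and 33 were kept, each taken by its brightest kept probe set. In HRG against PTN 6 rose, 7 fell and 20 did not pass, beside 14.1% higher and 11.7% lower over all kept probe sets. The median log2 change was 0.14 beside 0.08 over all probe sets. Against BSN 3 rose and 4 fell in HRG, beside 6.92% and 8.86% of all, with a median of 0.00 beside -0.04. In PTN against BSN 4 rose and 5 fell, beside 9.15% and 13.4% of all, with a median of -0.19 beside -0.11. The counts include Evpl, kept through its HRG arrays alone, and Cldn10, kept through PTN and BSN arrays alone.

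Among 11 further tight junction genes, Cldn4, a claudin of the collecting duct, was the only one that rose in HRG against PTN, averaging 20436 ± 3723 in HRG and 12252 ± 4020 in PTN (SD, n = 3 each, 1.71-fold, limma adjusted p = 0.0137). This was lost with median centring and without HRG replicate 1, and its adjusted p reached 0.0691. Cldn11, Cldn10 and Amotl2, an angiomotin, fell in that comparison, and Cldn11 did so with averages of 2233 ± 1114 in HRG and 7008 ± 1448 in PTN (adjusted p = 0.00129 in the limma fit). Cldn10 averaged 304 ± 55.5 in HRG, 720 ± 295 in PTN and 665 ± 162 in BSN, and fell against both. The call against PTN was lost without HRG replicate 1 or 2, and that against BSN passed in 7 of the 15 alternatives that kept Cldn10. Because Cldn10 was kept for testing through its PTN and BSN arrays alone, its calls in HRG are given as a description and not as support. The pattern of Cldn7, low in BSN, recurred for 2 genes: Cgnl1, encoding paracingulin, rose 2.17-fold in HRG and 1.97-fold in PTN against BSN (limma adjusted p = 0.000352 and 0.00111), and Prkci, the atypical protein kinase C of the polarity complex, rose 1.54-fold and 1.36-fold (0.00403 and 0.0215). The Prkci call in PTN against BSN passed in 14 of 19 alternatives. Pard3, the scaffold of that complex, was 1704 ± 315 in PTN, against 2331 ± 185 in BSN (limma adjusted p = 0.0465), a fall that passed in 5 of 19 alternatives.

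Of 4 further desmosome genes, Evpl, encoding the plaque protein envoplakin, rose in HRG against both media, with averages of 1362 ± 81.3 in HRG, 302 ± 135 in PTN and 512 ± 68.6 in BSN (SD, n = 3 each, limma adjusted p = 0.000123 and 0.00487). The PTN and BSN averages were below the 40th percentile of the arrays, so no fold is given. Because Evpl was kept for testing through its HRG arrays alone, its adjusted p is given as a description and not as support. Jup, encoding plakoglobin, averaged 1141 ± 89.4 in HRG and 772 ± 142 in PTN (adjusted p = 0.0365 in the limma fit), a rise that passed in 8 of 18 alternatives. Pkp4, a plakophilin relative also found at adherens junctions, went the other way, at 5735 ± 523 in HRG, 10445 ± 1350 in PTN and 6314 ± 567 in BSN. It fell in HRG against PTN and rose in PTN against BSN (limma adjusted p = 0.000692 and 0.00351).

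Of 15 further adherens junction genes, 3 cadherins, Cdh11, Cdh16 and Cdh3, passed in at least 1 comparison. Cdh11, a cadherin best known from mesenchyme, averaged 2078 ± 281 in HRG, 2973 ± 609 in PTN and 7546 ± 594 in BSN, and it fell against BSN in both HRG (limma adjusted p = 1.09e-05) and PTN (0.000219). Its fall in HRG against PTN (0.0442) passed in 8 of 19 alternatives. Cdh16, the kidney-specific cadherin, had the pattern of F11r, at 7618 ± 906 in HRG, 4618 ± 166 in PTN and 7780 ± 1237 in BSN (SD, n = 3 each). Its limma adjusted p was 0.00304 in HRG against PTN, and 0.00367 in PTN against BSN. Cdh3, P-cadherin, was highest in PTN, at 1228 ± 158 in HRG, 2602 ± 249 in PTN and 1711 ± 213 in BSN, and passed in HRG against PTN (adjusted p = 0.000228 in the limma fit) and in PTN against BSN (0.0136, lost without BSN replicate 3).

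The other calls among adherens junction genes were Lmo7, Ctnnd1, Actn1 and Actn4. Lmo7, a junction-associated LIM protein, rose 1.6-fold in HRG against PTN and fell in PTN against BSN, averaging 1959 ± 190 in HRG, 1218 ± 117 in PTN and 1708 ± 120 in BSN. The fall passed in 13 of 19 alternatives. Ctnnd1, p120 catenin, rose 1.79-fold in HRG against PTN (limma adjusted p = 0.0291, passing in 14 of 19 alternatives). Actn1, an actin-binding alpha-actinin, fell in HRG against both media, at 6564 ± 387 in HRG, 9185 ± 796 in PTN and 8838 ± 415 in BSN, and its call against BSN passed in 12 of 19 alternatives, in none of those without an HRG or a BSN replicate. Actn4, another alpha-actinin, was 2509 ± 275 in HRG, 2184 ± 297 in PTN and 3545 ± 407 in BSN, and fell against BSN in both, the HRG call in 9 of 19 alternatives.

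No connexin other than Gja1 passed: Gja4, Gja5 and Gja6 were the 3 kept of 9 on the array, and none of them passed in any comparison. Gja5, connexin 40, named after its values were seen, averaged 796 ± 34.9 in HRG, 596 ± 90.4 in PTN and 819 ± 23.8 in BSN (SD, n = 3 each), with adjusted p between 0.105 and 0.924 in the limma fit. Of 5 kept transcription factors known to act on epithelial junction genes, Klf5, a Krüppel-like factor of epithelia, rose 2.58-fold in HRG against PTN and 2-fold against BSN (limma adjusted p = 0.000644 and 0.0078). Its averages were 3436 ± 605 in HRG, 1311 ± 137 in PTN and 1758 ± 558 in BSN. Elf3, an epithelial ETS factor, rose 1.42-fold in HRG against PTN (limma adjusted p = 0.0183, passing in 15 of 19 alternatives). In HRG, 2 of the 5 thus rose against PTN and 1 against BSN, beside 14.1% and 6.92% of all kept probe sets. Klf4, Snai1 and Zeb1 passed in none of the comparisons, and Snai1, the Snail repressor, averaged 916 ± 134 in HRG, 806 ± 135 in PTN and 1173 ± 160 in BSN.

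**Figure D4:**
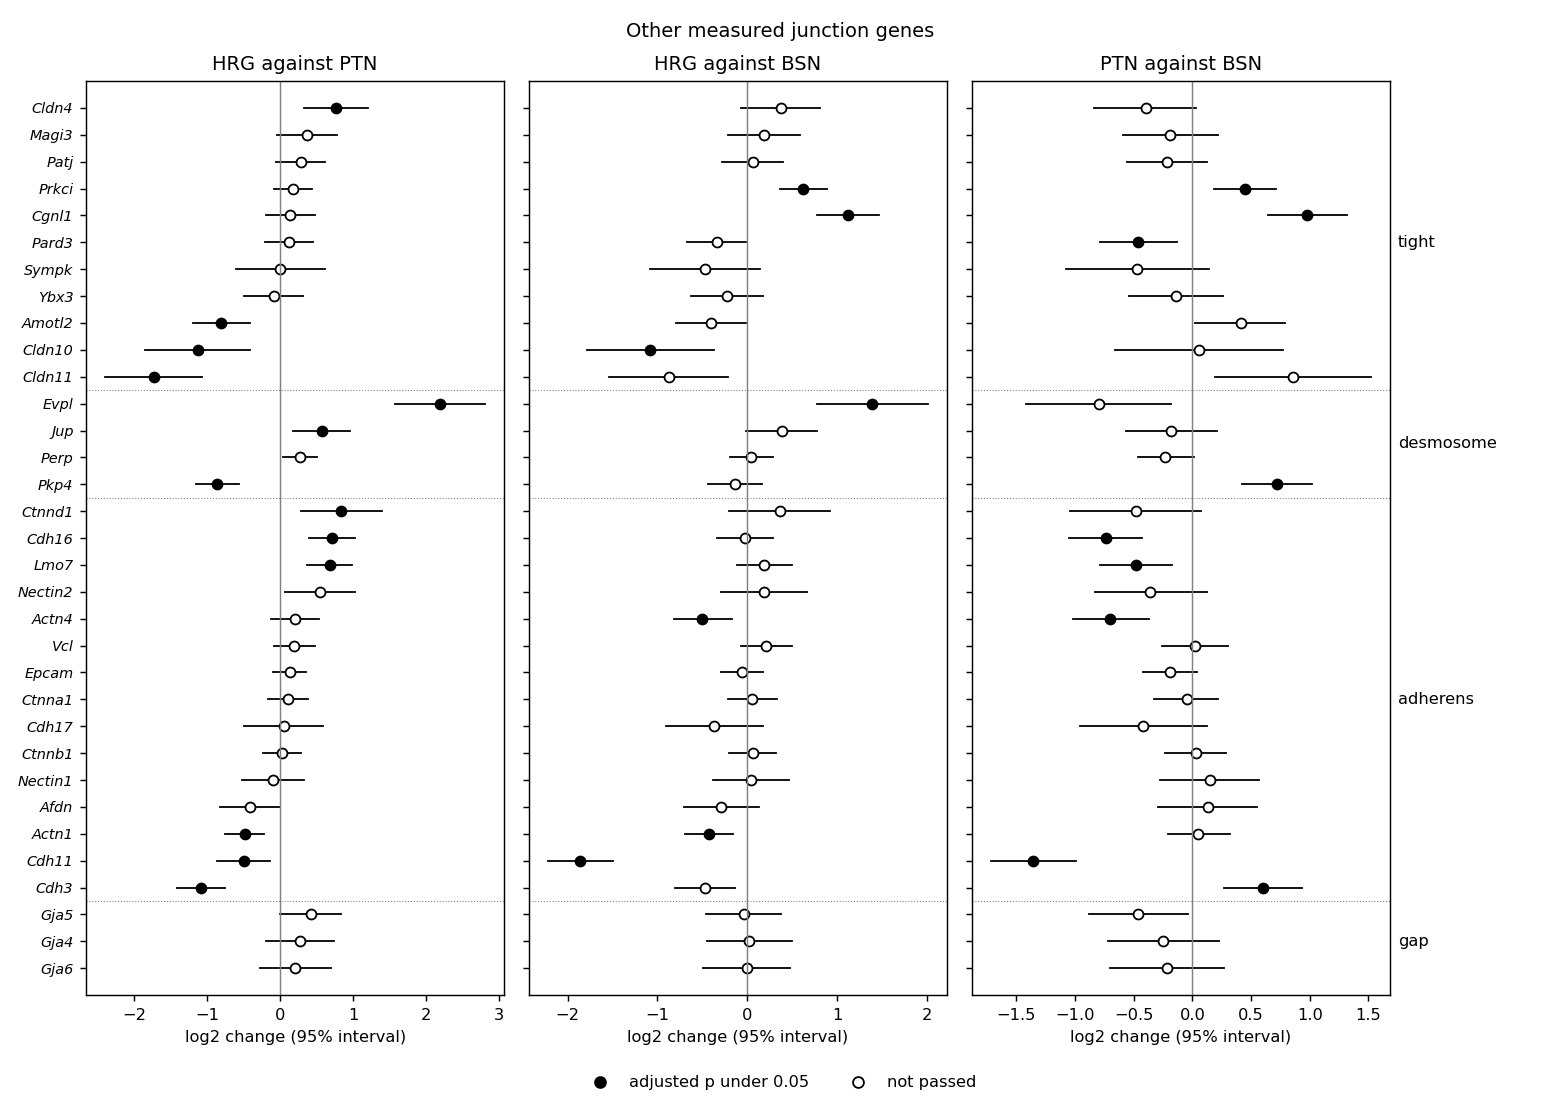
Log2 change with its 95% interval for 33 other junction genes, grouped by junction type and ordered within each by the change in HRG against PTN, with filled points where the limma adjusted p was under 0.05. Each panel has its own horizontal scale. Calls lie on both sides of 0 in all 3 comparisons, with Evpl farthest to the right and Cldn11 farthest to the left in HRG against PTN.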

How the data were processed

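Expression was measured on 9 Affymetrix arrays, 3 for each of the HRG, PTN and BSN media. The deposited values are signal intensities on a linear scale, made by the authors with GCOS per the submitters' processing notes (version not given in the sources used here). Of 15923 probe sets, 57 controls were set aside, and the filter on dim probe sets left 10106. Genes were named from the platform's probe table, in which 12789 probe sets have 1 symbol, 312 have several and 2822 have none.

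From the deposited signals, log2(signal + 16) was computed and fitted for all 9 arrays in limma 3.58.1 under R 4.3.3, using eBayes with an intensity trend (6 residual degrees of freedom, 12.7 after moderation). The script was tested on simulated data, and the number of arrays limits the precision. Same-numbered HRG and PTN arrays deviated together (r = 0.118 to 0.332 in 3 pairs), a pairing read from the data. The replicate block changed no call of a member between HRG and PTN. The 19 alternatives varied the normalization, pseudocount (1 or 64), filter, trend, weights, groups in the fit, block and each array left out.

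All probe sets of the members are named. Of each other junction list the genes that passed are named (where over 5, the 3 highest and 3 lowest by moderated t), and regulators are named if kept. For likeness, the 3 probe sets with the highest Pearson's r were found for each member. The members and lists were chosen with earlier results of these data known. Promoter sequences are RefSeq's for GRCr8.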

Additional observations from a re-analysis of the deposited data

How the results depend on the processing

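Of the 14 calls of members, 7 stayed past the threshold in every alternative and none changed direction: Gja1 in both comparisons of HRG, Cldn7 in both against BSN, and Dsc2, Ocln and F11r in HRG against PTN. The other 7 were lost in at least 1 alternative, as given beside them. The count of members called ranged over arrays left out from 4 to 6 in HRG against PTN, 3 to 5 in HRG against BSN (3 without BSN replicate 1, 2 or 3, or HRG replicate 2 or 3) and 2 to 4 in PTN against BSN. It was 3 with no intensity trend in HRG against BSN, and 1 with median centring in PTN against BSN. Under median centring all probe sets shifted by a median of 0.21 in PTN against BSN. The other junction genes called ranged over arrays left out from 7 to 14 in HRG against PTN (13 with all arrays, 7 without HRG replicate 1), 3 to 8 in HRG against BSN (7 with all arrays, 3 without HRG replicate 3, 4 without BSN replicate 2 or HRG replicate 2) and 5 to 15 in PTN against BSN (9 with all arrays, 5 without BSN replicate 3, 15 without PTN replicate 1). They numbered 4 with median centring in HRG against BSN, and 15 with array weights in PTN against BSN. Over all probe sets the range over arrays left out was 1826 to 3094 in HRG against PTN, 1023 to 2216 in HRG against BSN (1594 with all arrays, 1051 without BSN replicate 3, 1056 without HRG replicate 2, 1023 without HRG replicate 3) and 1345 to 3197 in PTN against BSN (2276 with all arrays, 1345 without BSN replicate 3), and array weights gave 2439 in HRG against BSN and 3480 in PTN against BSN. With the replicate block the counts over all probe sets were 2690, 1641 and 2362 in HRG against PTN, HRG against BSN and PTN against BSN, and those of members 6, 5 and 4, where the added call was Ocln in PTN against BSN (0.0489). The causes were not tested.

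Median centring moved the split of calls: HRG against PTN had 943 higher and 1452 lower in place of 1423 and 1180, HRG against BSN 855 and 623 in place of 699 and 895, and PTN against BSN 1598 and 645 in place of 925 and 1351. Changes near 0 that had not passed changed sign in 9 cases. In HRG against PTN with array weights, Cldn3 was at 0.19 and Cldn7 at 0.24, and with arrays left out Cldn3 ranged from -0.36 to 0.35 and Cldn7 from -0.40 to 0.15. In HRG against BSN, F11r was at -0.01 after quantile normalization and -0.04 to 0.16 with arrays left out, and Cldn3 at -0.04 to 0.25. In PTN against BSN, Cldn3 was at -0.16 with array weights and -0.22 to 0.50 with arrays left out, Tjp1 at 0.05 with median centring and -0.30 to 0.06, Cdh1 at -0.06 after quantile normalization and -0.11 to 0.28, Dsp at -0.03 after quantile normalization and -0.06 to 0.17, and Pkp2 at 0.03 after quantile normalization and 0.04 with median centring. Of 29 calls of other junction genes 17 passed in every alternative that kept the gene, and none changed sign. The 17 include the calls of Evpl, which were tested in only 15 alternatives. As Evpl was kept through its HRG arrays alone, its calls are not counted as support. With 3 arrays a medium, small changes such as those of Cdh1 could not be resolved, and the order of signals below the 40th percentile was not relied on.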
